A study of Mus musculus with 4 samples.

Results

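The cells described here were dividing oligodendrocyte precursor cells (OPCs), the cycling glial progenitors that give rise to myelinating oligodendrocytes. They were selected on measured UMIs (unique molecular identifiers, tags that mark single captured transcripts) among barcodes that passed a filter of 2000 to 40000 UMIs, 1000 genes or more and no more than 10% mitochondrial UMIs. A cell was taken when it held at least 3 UMIs of *Pdgfra*, at least 1 of *Olig1* and *Olig2* together, and at least 3 of *Mki67* and *Top2a* together. It was also required to hold none of *Mag*, *Mobp* and *Mog* and at most 1 of *Col1a1* and *Col1a2*. There were 734 such cells among 17623 filtered cells (4.17%) and 27742 barcodes. The libraries contributed 138 cells (control replicate 1), 149 (control replicate 2), 246 (mutant replicate 1) and 201 (mutant replicate 2).

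The study asked how loss of *Chd8* function, induced in the fetal brain, affects neural cells. *Chd8* encodes a chromatin remodeller whose mutation is associated with autism. Control mice were *NestinCreERT2/tdTomato/Chd8*+/+ and mutant mice *NestinCreERT2/tdTomato/Chd8*+/F, a genotype in which the loxP-flanked part of 1 allele can be deleted, all on the C57BL/6 J background. All dams received tamoxifen at E14.5, so that Cre in Nestin-expressing progenitors switched on the tdTomato reporter in both genotypes, and all pups were delivered by cesarean section and fostered. tdTomato-positive cells were sorted from the telencephalon at P5 and pooled from 3 mice per library, with 2 libraries per genotype. *Nestin* drives the recombinase in progenitors of several lineages, so the mutation was not restricted to OPCs, and the spread between single mice could not be measured.

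The libraries differed in ways unrelated to genotype. In dividing OPCs, *Xist*, transcribed from the inactive X chromosome, was at 0.765 and 0 CPM (counts per 1000000 UMIs) in control and mutant replicate 1 and at 2158 and 2356 CPM in control and mutant replicate 2. The Y-linked *Ddx3y* was at 49.8 and 53.9 CPM in the libraries of replicate 1 and at 0 and 1.95 CPM in those of replicate 2. Replicate 1 was therefore of male and replicate 2 of female origin by these genes, and the matrix headers also named different versions of Cell Ranger for the replicates (7.0.0 and 5.0.1). Library totals were 79328841 and 78211984 UMIs in control and mutant replicate 1 and 46274374 and 50616343 in control and mutant replicate 2. Between 8 and 21 cell barcodes were shared by any pair of libraries, and no barcode of a dividing OPC was shared. Sex, software version and depth cannot be told apart between the replicate numbers, but each genotype had a library of each kind.

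OPCs arise from ventral and later dorsal progenitors, carry the PDGF receptor α encoded by *Pdgfra*, and divide under the mitogen PDGF before some leave the cell cycle and myelinate. The transcription factors OLIG1, OLIG2 and SOX10 hold the lineage. Passage through the cycle proceeds from G1, governed by D-type cyclins and the retinoblastoma and E2F proteins, through DNA replication in S phase to chromosome segregation in mitosis, and the protein Ki-67 (*Mki67*) and topoisomerase IIα (*Top2a*) mark cells in the later part of it.

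The genes of the rule were as follows and are given as a description. *Pdgfra* (ENSMUSG00000029231, mm10 chromosome 5, 75152292 to 75198215, plus strand) was at 973, 2084, 1114 and 1474 CPM in control replicate 1, control replicate 2, mutant replicate 1 and mutant replicate 2, the order used for all sets of 4 values below. *Olig1* (ENSMUSG00000046160, chromosome 16, 91269772 to 91271933) was at 1037, 947, 989 and 1388 CPM, and *Olig2* at 445, 448, 446 and 536 CPM. *Mki67* was at 525, 1495, 520 and 1132 CPM and *Top2a* at 874, 1371, 881 and 1189 CPM. Both division genes and *Pdgfra* were higher in each library of replicate 2 than in either of replicate 1. The median cell held 17.5, 18, 16.5 and 19 UMIs of *Mki67* and *Top2a*, well above the limit. Just inside it lay 56 cells with 3 such UMIs, and just outside it 110 OPCs with 2. For *Pdgfra*, 31 cells stood at 3 UMIs and 51 cells that met every other term stood at 2.

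The label was checked on 8 marker genes of the OPC lineage, of which *Olig2* belongs to the rule. The other 7 together reached 7679, 6399, 7639 and 5604 CPM, and *Ptprz1*, encoding a receptor phosphatase of OPCs, was the most abundant at 3272 ± 353 CPM (SD, n = 4 libraries). Microglia of the same libraries held 479, 709, 843 and 265 CPM of the same 7 genes and dividing inhibitory neuron progenitors 1222, 1522, 1070 and 898 CPM. Dividing astrocyte progenitors held 3841, 5669, 4329 and 4131 CPM, most of it *Ptprz1*, which was higher there (3765 CPM, log2 difference of -0.24 ± 0.06 for OPCs over astrocyte progenitors, edgeR adjusted p = 0.00514), so the sum alone does not mark the class. The myelin genes *Mag*, *Mobp* and *Mog* were absent and *Col1a1* and *Col1a2* capped by the rule. The 3 fibroblast markers outside it (*Dcn*, *Lum* and *Col3a1*) summed to at most 2.93 CPM in any library. Astrocyte markers summed to between 561 and 717 CPM, most of it *Slc1a3*, which OPCs also express, while resting OPCs held between 543 and 969 CPM. Microglial markers summed to between 4.5 and 46.9 CPM and excitatory neuron markers to between 14.6 and 29.3 CPM. Endothelial markers lay at 4.21, 4 and 3.83 CPM in the first 3 libraries and at 155 CPM in mutant replicate 2.

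Markers of the inhibitory neuron lineage stood apart. Their 8 genes summed to 257, 115, 211 and 106 CPM in dividing OPCs and to 137, 66.2, 94.8 and 32 CPM in resting OPCs, and none of the 8 was at 0. *Dlx1* was the most abundant at 35.2 ± 10.9 CPM. By library, 16, 4, 15 and 6 of the cells held at least 3 UMIs of *Dlx1* and *Dlx2*, transcription factors of inhibitory progenitors. In addition, 36 of the 734 cells held at least 3 UMIs of the astrocyte genes *Aqp4* and *Gja1*, and 3 held at least 3 of the microglial genes *C1qa* and *C1qb*. When cells with more than 1 UMI of *Dlx1* and *Dlx2*, *Aqp4* and *Gja1*, *C1qa* and *C1qb*, *Cldn5*, or *Neurod2* and *Neurod6* were left out, 619 cells remained. Whether such cells were doublets was not tested.

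Dividing OPCs held more UMIs per cell than resting OPCs. Their median was 18533, 12655, 15918 and 14087 UMIs per cell and 5417, 4361, 5077 and 4780 genes, against medians of 10506, 7950, 9553 and 7262 UMIs in resting OPCs, which met the same lineage terms and held no UMI of *Mki67* or *Top2a* (1739 cells). Mitochondrial UMIs had medians of 2.23, 5.18, 2.62 and 4.38% in dividing OPCs. Dividing astrocyte progenitors had medians of 21023, 16904, 19096 and 17969 UMIs, above dividing OPCs in every library. Dividing inhibitory neuron progenitors had medians of 16969, 12276, 16142 and 14402 UMIs, with no single order against OPCs. A fixed number of raw UMIs is a lower relative level in a deeper cell, so the limits on *Pdgfra*, *Olig1* and *Olig2* asked for a higher relative level in the shallower resting OPCs.

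The division programme of these cells was first described by 2 lists, one of DNA replication (41 genes) and one of mitosis (56 genes). Since *Mki67* and *Top2a* chose the cells, the contrast with resting OPCs on these lists has no test. All 41 replication genes were higher in dividing than in resting OPCs in all 4 libraries, with a median log2 fold difference of 2.14, and 53 of the 54 mitosis genes outside the rule were, with a median of 5.77. Over all 12080 genes tested, 2442 were higher and 3662 lower in all 4 libraries, with a median of -0.03. *Hmgb2*, a chromatin protein of dividing cells, was at 1994, 2018, 1947 and 1887 CPM against 130, 108, 125 and 161 CPM in resting OPCs, a ratio of 15. *Cenpf*, encoding a kinetochore protein, was at 818, 1457, 609 and 1355 CPM against 10.2, 8.66, 7.68 and 14.3 CPM. *Rrm2*, a subunit of ribonucleotide reductase, was at 169, 181, 208 and 184 CPM against 10.5, 4.59, 5.83 and 12.1 CPM. The proliferating cell nuclear antigen gene *Pcna* was at 188, 233, 292 and 190 CPM against 53.8, 56.6, 44.4 and 66.2 CPM. No value of these 4 genes overlapped between the classes, and the difference was larger for *Cenpf* (a ratio of 104) than for *Pcna* (4.09). The 10 genes with the largest fitted difference at 50 CPM or more were *Aurkb*, *Depdc1a*, *Esco2*, *Hmmr*, *Kif11*, *Kif14*, *Nek2*, *Pimreg*, *Sgo1* and *Ska1*, most of which act on the spindle, the kinetochore or sister chromatids.

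In most dividing OPCs, the mitosis UMIs outnumbered the replication UMIs when *Mki67* and *Top2a* were left out of the sum. This held for 102 of 138, 119 of 149, 179 of 246 and 166 of 201 cells (73.9, 79.9, 72.8 and 82.6%). The remaining cells were mostly on the replication side (25.4, 19.5, 26.8 and 16.4%). OPCs with 1 or 2 UMIs of *Mki67* and *Top2a*, of which there were 384, had more replication UMIs in 65.2, 80.8, 67.7 and 71.9% of them. Since *Mki67* and *Top2a* peak with the mitosis genes, the limit on them favours both orders, which are a description: with the limit raised to 5, the mitosis side held 82.4, 85.3, 78.6 and 86.3% of dividing OPCs. The summed replication level of OPCs with 1 or 2 such UMIs was 1677, 2036, 1552 and 2187 CPM, between that of resting OPCs (787, 893, 711 and 928 CPM) and that of dividing OPCs (2702, 3030, 3377 and 2803 CPM). With every cell thinned to 5000 UMIs and shallower cells left out (54 dividing and 70 low-division OPCs), the mitosis side held 76.9, 80.4, 71.1 and 78.6% of dividing OPCs, and the replication side 60, 76.7, 65.8 and 68.4% of OPCs with 1 or 2 division UMIs. Resting OPCs, which held no division UMI, were on the replication side in 73.3, 68, 68.7 and 69.5% of cells. After thinning (404 left out) these shares were 68.3, 70.2, 64.6 and 67.5%. Neither set had a single order against OPCs with 1 or 2 division UMIs, so the replication side did not set the latter apart.

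**Figure D1:**
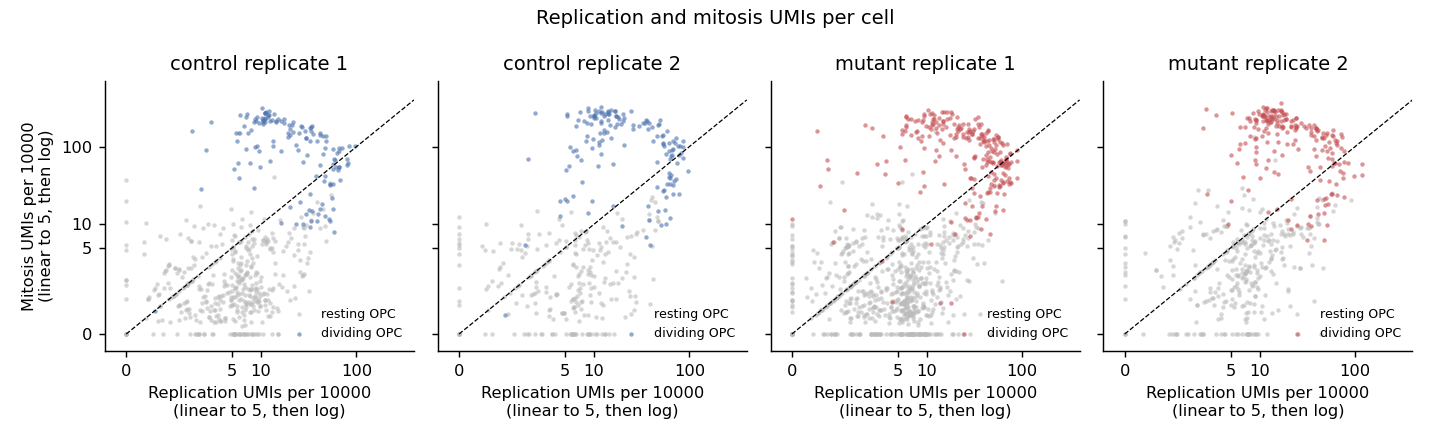
Summed UMIs of the replication list (x axis) and of the mitosis list without *Mki67* and *Top2a* (y axis) per 10000 UMIs of each cell, both axes linear to 5 and logarithmic beyond, in the 4 libraries. Grey points are resting and coloured points dividing OPCs, and the dashed line marks equal sums, above which lie 73.9, 79.9, 72.8 and 82.6% of the dividing OPCs of the 4 panels.

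Genes of mitosis are known to share promoter elements, the CHR element (TTTGAA) and CCAAT boxes, and genes of replication to carry E2F sites. These letters were searched on both strands in windows from 250 bases before to 50 after each RefSeq start site (GRCm38.p6), of which the lists matched 48 of 56 and 33 of 41 genes. A gene with several windows was counted once if any window matched. TTTGAA was found for 32 of the 48 mitosis genes (66.7%), 4 of the 33 replication genes (12.1%) and 20.2% of all 27025 genes with a window. CCAAT occurred at least 2 times in 1 window for 52.1% of the mitosis genes, against 33.3% of the replication genes and 13.3% of all genes. E2F letters (TTTCCCGC, TTTGGCGC, TTTCGCGC or TTTGCCGC) were found for 42.4% of the replication genes, 4.17% of the mitosis genes and 2.6% of all genes. Among the 9394 genes with a window that were tested between dividing and resting OPCs, these shares were 13.7% for TTTGAA, 17.2% for CCAAT and 4.92% for E2F letters. TTTGAA in replication genes and E2F letters in mitosis genes lay near them. The motifs cannot overlap by more than a few bases, and a match describes letters and not a bound site. The windows of the 3 mitosis genes with the highest level in dividing OPCs among those with TTTGAA are shown because they hold both elements, with both motifs and their reverse complements in capitals. They lie at chr8:57511593-57511892, plus strand (*Hmgb2*), chr11:99024140-99024439, minus strand (*Top2a*) and chr1:189688037-189688336, minus strand (*Cenpf*), each written 5′ to 3′ along the gene.
Hmgb2: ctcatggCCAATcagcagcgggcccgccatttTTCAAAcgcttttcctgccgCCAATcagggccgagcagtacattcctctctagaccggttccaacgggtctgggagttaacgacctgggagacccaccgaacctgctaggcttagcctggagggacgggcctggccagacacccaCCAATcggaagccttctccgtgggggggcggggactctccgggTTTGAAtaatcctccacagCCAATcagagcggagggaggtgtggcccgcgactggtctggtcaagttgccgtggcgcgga
Top2a: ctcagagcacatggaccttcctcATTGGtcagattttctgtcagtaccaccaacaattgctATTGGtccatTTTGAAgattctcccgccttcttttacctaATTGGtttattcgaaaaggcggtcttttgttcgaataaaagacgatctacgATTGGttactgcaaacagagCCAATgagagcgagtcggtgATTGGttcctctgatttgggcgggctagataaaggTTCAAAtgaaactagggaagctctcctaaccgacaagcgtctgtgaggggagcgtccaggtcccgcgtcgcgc
Cenpf: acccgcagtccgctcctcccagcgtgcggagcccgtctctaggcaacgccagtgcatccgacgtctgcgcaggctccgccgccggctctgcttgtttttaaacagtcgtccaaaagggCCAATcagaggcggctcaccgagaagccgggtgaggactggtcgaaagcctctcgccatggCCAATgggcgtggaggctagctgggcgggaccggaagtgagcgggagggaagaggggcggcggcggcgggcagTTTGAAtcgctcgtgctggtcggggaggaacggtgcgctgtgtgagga

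The corresponding windows of the replication list, the 3 genes with the highest level among those with E2F letters, are given with these letters in capitals. They lie at chr7:13278576-13278875, plus strand (*Lig1*, a DNA ligase), chr17:56304063-56304362, plus strand (*Uhrf1*, a factor that maintains DNA methylation) and chr5:138171834-138172133, minus strand (*Mcm7*, a subunit of the replicative helicase). None of the 3 holds TTTGAA.
Lig1: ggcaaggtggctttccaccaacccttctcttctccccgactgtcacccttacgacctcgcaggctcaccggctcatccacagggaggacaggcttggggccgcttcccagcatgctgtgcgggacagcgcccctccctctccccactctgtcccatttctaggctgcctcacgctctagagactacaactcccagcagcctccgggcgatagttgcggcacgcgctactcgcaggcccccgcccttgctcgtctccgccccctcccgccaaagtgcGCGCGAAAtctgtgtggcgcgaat
Uhrf1: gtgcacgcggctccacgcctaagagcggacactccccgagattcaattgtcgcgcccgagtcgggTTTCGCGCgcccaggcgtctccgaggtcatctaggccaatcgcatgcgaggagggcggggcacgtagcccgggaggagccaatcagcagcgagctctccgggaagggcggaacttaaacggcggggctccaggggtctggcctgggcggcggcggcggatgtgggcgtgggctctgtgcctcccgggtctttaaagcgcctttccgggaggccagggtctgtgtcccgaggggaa
Mcm7: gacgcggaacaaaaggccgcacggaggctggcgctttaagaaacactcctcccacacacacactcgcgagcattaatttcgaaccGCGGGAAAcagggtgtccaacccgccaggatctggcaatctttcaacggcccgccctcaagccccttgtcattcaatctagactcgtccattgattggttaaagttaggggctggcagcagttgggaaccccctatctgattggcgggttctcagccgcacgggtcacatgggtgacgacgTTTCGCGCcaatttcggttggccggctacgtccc

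Genes outside the rule were then compared between dividing and resting OPCs in sums of counts per library and class, with the library as a block. The genes tested numbered 12080, of which 19.9% were called higher and 18.6% lower in dividing cells at an adjusted p under 0.05 (edgeR quasi-likelihood test), or 2398 and 2243 genes. With library totals in place of TMM factors, 1972 genes were called higher and 2901 lower. With the block, these p-values measure how the difference between the classes varied over 4 libraries of pooled mice. The spread between libraries is taken out. Dividing OPCs had lower levels of several lineage, differentiation, channel and receptor genes. Among early progenitor genes *Nes* and *Sox11* were higher, while their list as a whole had a median of -0.10 against -0.03 over all genes tested. Without cells that held UMIs of another lineage the median of that list was -0.65. Because the classes differed in depth, the lists are also given for cells of 8000 to 16000 UMIs in both classes (cells of like depth), in which 13.3% of 10261 genes were called higher and 9.8% lower and the medians lay between 11407 and 12808 UMIs for dividing and between 10272 and 11425 for resting OPCs. Without the library block, 6.94% of genes were called higher and 1.08% lower, and several of the list counts below were lost. OPC identity then had 1 of 23 called lower, differentiation 0 of 21, growth factor receptors 0 of 17, channels and receptors 0 of 22, and immediate early genes 0 of 11. Called higher were 8 of 20 G1 regulators, 0 of 91 oxidative phosphorylation genes and 0 of 91 ribosomal genes. Among the genes named below, *Matn4*, *Ptprz1*, *Cspg5*, *Sox10*, *Nes*, *Dll1*, *Sox4*, *Itpr2*, *Sema5a*, *Neu4*, *Ntrk2*, *Erbb4*, *Gria2*, *Grin1* and *Grik1* lost their call there. So did *Ccnd2*, *Cdkn1b*, *Chd3*, *Chd9*, *Jun*, *Cdkn1a*, *Notch1*, *Hes1*, *Id2* and *Nfia*.

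OPC identity genes were modestly lower in dividing cells. Of 23 tested, 19 were called lower and none higher, with a median log2 fold difference of -0.27 against -0.03 over all genes tested. *C1ql1* (ENSMUSG00000045532, chromosome 11, 102939264 to 102946688), which encodes a secreted C1q-domain protein, was at 216, 201, 236 and 233 CPM in dividing and 393, 325, 399 and 400 CPM in resting OPCs. The classes did not overlap, and the log2 fold difference was -0.72 ± 0.06 (SE, adjusted p = 1.44e-09). The extracellular matrix gene *Matn4* had a difference of -0.51 ± 0.06 (adjusted p = 9.37e-07), and *Ptprz1* one of -0.27 ± 0.05 (adjusted p = 0.000339). In cells of like depth the count fell to 6 called lower and 1 higher of 23, with a median of -0.16. *Ptprz1* was at -0.16 there (adjusted p = 0.271), and *Cspg5*, at -0.30 over all cells (adjusted p = 9.84e-05), was at 0.05 (adjusted p = 0.775). *Sox10*, at -0.16 over all cells (adjusted p = 0.0306), was at -0.06 without cells that held UMIs of another lineage (adjusted p = 0.451).

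Among 14 genes of early or primitive OPCs, 3 were called higher and 4 lower, where 19.9% of all genes were called higher and 18.6% lower. *Nes* (ENSMUSG00000004891, chromosome 3, 87971078 to 87980451), encoding the intermediate filament nestin of neural progenitors, was at 65.4, 181, 61.1 and 181 CPM in dividing OPCs against 36.3, 108, 26 and 87.2 CPM in resting OPCs. It was higher in dividing cells of every library, by 1.03 ± 0.08 on the log2 scale (adjusted p = 3e-09), and higher in both libraries of replicate 2 than in those of replicate 1 in either class. *Sox11*, encoding a transcription factor of immature neural cells, was at 458, 438, 405 and 598 CPM against 268, 311, 236 and 399 CPM, a difference of 0.73 ± 0.06 (adjusted p = 3.03e-09). The Notch ligand genes moved the other way. *Dll3* was at 60.1, 34, 64.5 and 63.8 CPM in dividing and 129, 98.4, 106 and 162 CPM in resting OPCs, a difference of -1.04 ± 0.10 (adjusted p = 2.74e-08), and *Dll1* had one of -0.76 ± 0.11 (adjusted p = 1.7e-05). *Sox4*, a relative of *Sox11*, was lower at -0.57 ± 0.09 (adjusted p = 3.24e-05). In cells of like depth *Nes* and *Sox11* were at 0.85 and 0.62 (adjusted p = 1.91e-07 and 3.35e-06). Without cells that held UMIs of another lineage they were at 1.11 and 0.46, and 3 genes of the list were then called higher and 8 lower, where 20.6% of all genes were called higher and 19.8% lower (2 and 7 of 13 in cells of like depth). The median of the list was -0.10 over all cells, -0.65 after that step and -0.53 in cells of like depth.

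**Figure D2:**
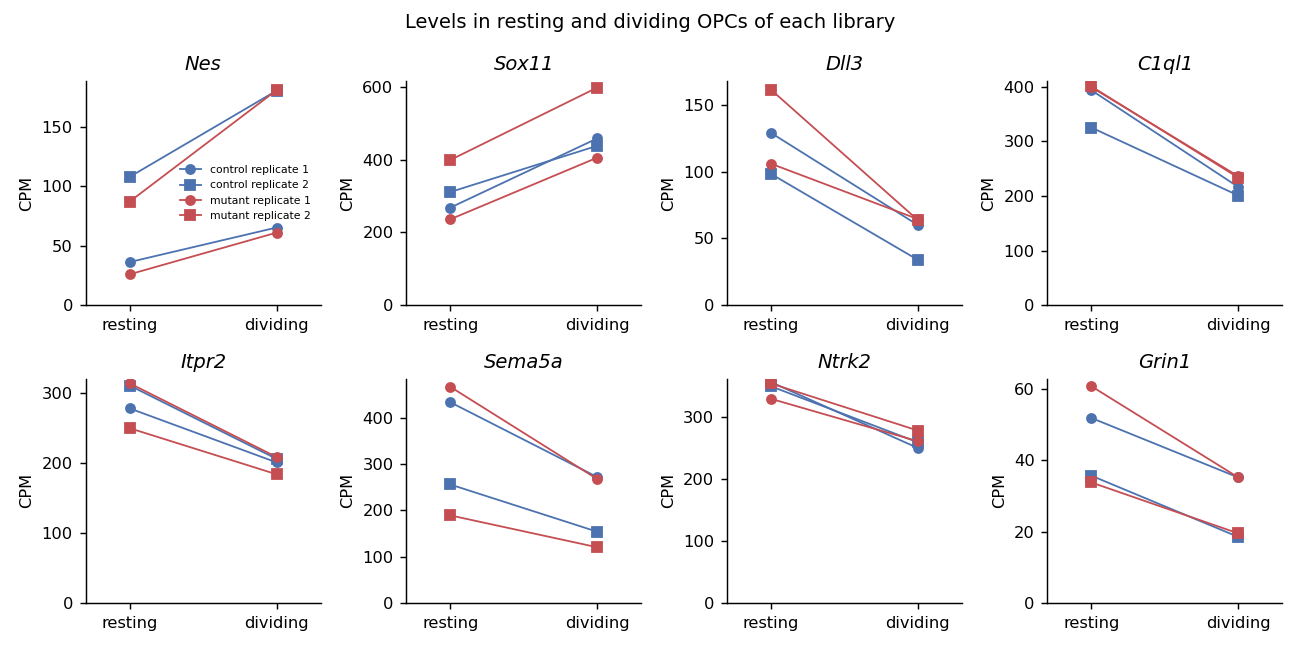
Levels in CPM (y axis, from 0) of 8 genes in the summed counts of resting and dividing OPCs, with 1 line per library (blue control, red mutant; circles replicate 1, squares replicate 2). *Nes* and *Sox11* rise and *Dll3*, *C1ql1*, *Itpr2*, *Sema5a*, *Ntrk2* and *Grin1* fall in every library.

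Genes that mark commitment and differentiation along the lineage were on balance lower in dividing OPCs, with 10 of 21 called lower, 1 higher and a median of -0.24. *Itpr2*, encoding an inositol trisphosphate receptor of committed precursors, was at 201, 206, 208 and 184 CPM against 278, 310, 314 and 249 CPM in resting OPCs, with no overlap (-0.46 ± 0.06, adjusted p = 1.34e-06). *Sema5a*, a semaphorin gene, was at 273, 154, 268 and 121 CPM against 434, 256, 468 and 190 CPM (-0.66 ± 0.06, adjusted p = 7.42e-09). *Bcas1*, a gene of early myelinating cells, differed by -0.48 ± 0.06 (adjusted p = 1.21e-06). The ganglioside sialidase gene *Neu4* was at 8.04, 3.5, 10.1 and 3.91 CPM against 12.2, 7.64, 28.7 and 9.2 CPM (-1.13 ± 0.21, adjusted p = 0.000222). *Gpr17*, encoding a receptor of committed precursors, was at 132, 240, 123 and 281 CPM against 139, 258, 185 and 241 CPM and did not pass the test (adjusted p = 0.498). The gene called higher was *Cldn11*, which encodes a tight junction protein of myelin. It was at 18.4, 25, 10.8 and 26.4 CPM in dividing OPCs against 2.56, 3.57, 1.99 and 3.31 CPM in resting OPCs, a log2 fold difference of 2.80 ± 0.23 (adjusted p = 2.99e-09). Of the 21 differences, 18 were negative, against 6465 of 12080 over all genes tested. In cells of like depth, 7 of 19 were called lower and 1 higher.

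Receptor, signalling and excitability genes showed the same direction. Of 17 genes for growth factor receptors and feedback regulators of ERK signalling, 8 were called lower and none higher (median -0.20). *Ntrk2*, the BDNF receptor gene, was at 250, 259, 261 and 278 CPM against 356, 349, 329 and 354 CPM (-0.34 ± 0.06, adjusted p = 4.86e-05), and the ERK feedback gene *Spry1* differed by -0.39 ± 0.07 (adjusted p = 0.000144). *Erbb4*, a neuregulin receptor gene, was at 1679, 158, 1660 and 104 CPM against 2343, 199, 2403 and 152 CPM (-0.42 ± 0.06, adjusted p = 5.95e-06), lower within every library although the replicates differed far more than the classes. Of 22 ion channel and neurotransmitter receptor genes, 12 were called lower and 1 higher (median -0.25). The AMPA receptor gene *Gria2* was at 688, 1022, 738 and 1035 CPM against 812, 1390, 994 and 1524 CPM (-0.36 ± 0.06, adjusted p = 3.15e-05), and the NMDA receptor gene *Grin1* differed by -0.68 ± 0.10 (adjusted p = 2.42e-05). The kainate receptor gene *Grik1* was the one called higher, by 0.41 ± 0.07 (adjusted p = 7.48e-05). In cells of like depth, 5 of 16 growth factor genes were called lower, but after thinning to 5000 UMIs 2 of 16 were, near the 10.9% of all genes called lower there. Of the channel and receptor genes 2 were lower and 1 higher of 22, the former near the share of all genes called lower there (median -0.11). *Gria2* (-0.22, adjusted p = 0.0753) and *Grin1* (-0.42, adjusted p = 0.0565) lost their call there. Among the 10 genes with the largest falls at 50 CPM or more were *Cacna1e* (a calcium channel), *Grm7* (a glutamate receptor), *Rph3a*, *Unc13c* and *Chgb*, which serve vesicle release, and *Nt5c*, *Tcp11l2* and *6330403K07Rik*. Another was the globin gene *Hbb-bs*, whose level in resting OPCs came from control replicate 2 (1023 CPM, against at most 11 CPM in the other 3 libraries).

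**Figure D3:**
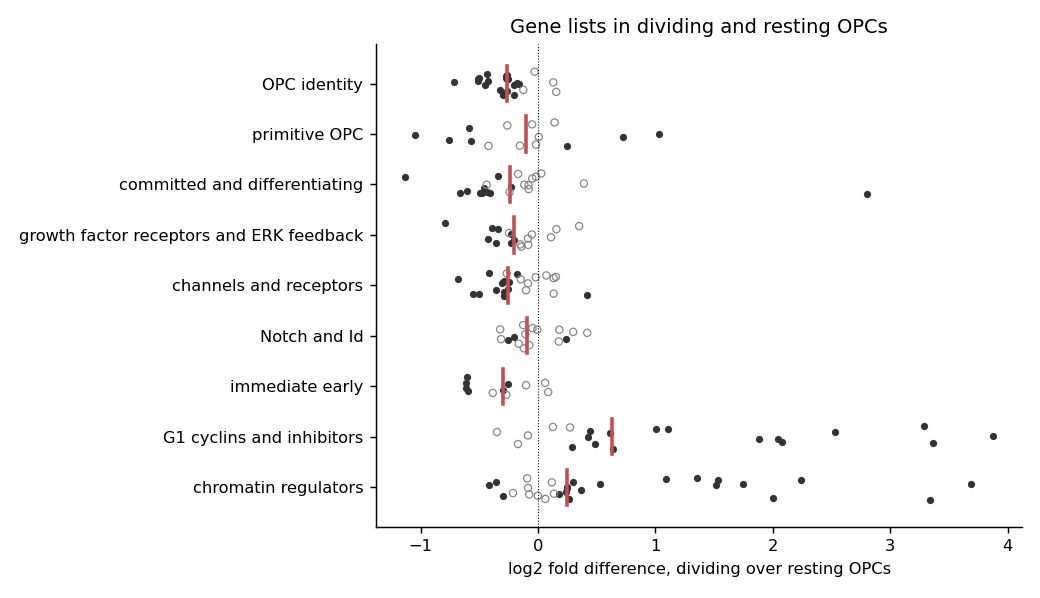
Fitted log2 fold differences (x axis) between dividing and resting OPCs for genes of 9 lists (rows). Filled points passed the test, open points did not, vertical jitter has no meaning and red bars mark list medians, which lie at -0.27 for OPC identity and at 0.63 for G1 cyclins and inhibitors.

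Regulators of the G1 phase were mostly higher in dividing OPCs, with 15 of 20 called higher and none lower (median 0.63). They bear on the cell cycle as the rule does, and their direction is not independent of it. In cells of like depth, 11 of 19 were called higher and 2 lower. The cyclin-dependent kinase inhibitor gene *Cdkn2c* was at 168, 111, 140 and 131 CPM against 12.6, 17.3, 12.1 and 18.4 CPM in resting OPCs, and *E2f2* at 25.3, 16.5, 23.2 and 14.7 CPM against 2.13, 2.04, 0.996 and 1.1 CPM. The inhibitor gene *Cdkn1b* was also higher, by 0.49 ± 0.07 (adjusted p = 7.4e-06). *Ccnd1*, a D-type cyclin gene, was at 349, 378, 382 and 450 CPM against 431, 433, 412 and 447 CPM and did not pass the test (-0.09 ± 0.06, adjusted p = 0.251). *Ccnd2* was higher over all cells (0.62 ± 0.08, adjusted p = 6.29e-06) and lower without the cells that held UMIs of another lineage (-0.35, adjusted p = 1.07e-05). Of the markers of inhibitory neurons 6 of 8 were called higher over all cells, and 1 of the 3 still tested, *Sp9*, after that step, which itself removes cells by *Dlx1* and *Dlx2*. Over all cells but without the library block, 0 of these 8 markers were called.

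Of 28 chromatin regulators, 17 were called higher and 3 lower (median 0.25). Those higher included genes tied to replication, such as *Uhrf1* (85.3, 101, 96.8 and 109 CPM against 7.04, 8.66, 5.41 and 13.2 CPM), *Dnmt1* (1.54 ± 0.08) and *Ezh2* (1.35 ± 0.06), and the histone variant gene *H2afz* (3030, 2739, 2657 and 2760 CPM against 674, 611, 558 and 629 CPM). The 3 lower were *Chd3* (-0.36 ± 0.08, adjusted p = 0.000972), *Chd9* (-0.41 ± 0.07, adjusted p = 0.000132) and *Smarca2*, all chromatin remodellers. As for the G1 list, the direction is not independent of the rule, since the list holds replication genes. At like depth 10 of 28 were higher and 3 lower. *Chd8* itself did not pass the test, at 60.5, 110, 74.8 and 112 CPM against 62.1, 101, 73.3 and 120 CPM (0.06 ± 0.07, adjusted p = 0.526). Of the 42 histone genes tested, 39 were called higher and 3 lower (27 and 2 of 30 in cells of like depth). These genes also bear on the cell cycle as the rule does, and their direction is not independent of it. Most belong to clusters of near-identical copies, among which the counts are uncertain, and replication-dependent histone transcripts largely lack the poly(A) tail that the method captures. The immediate early genes, which respond to stimulation and to tissue dissociation, had 6 of 11 called lower and none higher (median -0.30). *Jun* was at 140, 160, 113 and 220 CPM against 238, 251, 172 and 340 CPM (-0.60 ± 0.06, adjusted p = 4.69e-08), and in cells of like depth 7 of 10 were lower.

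Of 15 p53 target genes, *Cdkn1a* was called higher (0.64 ± 0.21, adjusted p = 0.0218) and *Ccng1*, *Trp53inp1*, *Bbc3* and *Plk2* lower. None was called in cells of like depth (0 of 11) or after thinning (0 of 12), and *Cdkn1a* was not called with DESeq2 (adjusted p = 0.175) or without cells that held UMIs of another lineage (edgeR, adjusted p = 0.324). Of 8 Wnt targets 0 were called by edgeR or DESeq2 (0 at an unadjusted p under 0.05 by edgeR), and 0 of 7 in cells of like depth. Without cells that held UMIs of another lineage 1 of 7, *Myc*, was called higher (0.41, adjusted p = 0.0489). Among 16 genes of the Notch and Id list, which also held *Tcf3*, *Tcf4* and *Tcf12*, 1 was called higher and 2 lower. Both shares lay below the 19.9 and 18.6% of all genes tested. *Notch1* was the one higher (0.24 ± 0.06, edgeR adjusted p = 0.00514, but 0.0819 with DESeq2 and 0.0548 in cells of like depth). *Hes1* and *Id2* were lower (edgeR adjusted p = 0.0184 and 0.0111). But *Hes1* was at 0.33 in cells of like depth (adjusted p = 0.0565) and at -0.17 without cells that held UMIs of another lineage (adjusted p = 0.124). At like depth 2 of 13 of these genes, *Hes5* and *Id1*, were higher and 1, *Tcf12*, lower, and *Id2* was at 0.07 (adjusted p = 0.646). Without cells that held UMIs of another lineage 2 of 14 were higher and 4 lower. *Hes5* was then among the lower (-0.235, edgeR adjusted p = 0.0103), opposite to its call at like depth. *Tcf4* (-0.01 ± 0.05, adjusted p = 0.936) did not pass the test. *Nfia* was at 824, 343, 784 and 477 CPM against 692, 338, 696 and 493 CPM (0.17 ± 0.06, adjusted p = 0.0255) and at -0.05 in cells of like depth (adjusted p = 0.728) and 0.07 without cells that held UMIs of another lineage (adjusted p = 0.358). Of 91 oxidative phosphorylation genes, 31 were called higher and 4 lower (median 0.07), and 9 were higher and 4 lower of 91 in cells of like depth, both shares below those of all genes there. The ribosomal list by its name pattern also took in S6 kinase genes such as *Rps6ka6* and *Rps6kl1*. It had 14 of 91 called higher and 4 lower (median 0.04), both shares below those of all genes tested. Among cells of like depth 0 of 88 were higher and 39 lower (median -0.25). After thinning 1 was higher and 11 of 88 lower (median -0.07), the latter near the 10.9% of all genes called lower there, while 14.5% of all genes were called higher. The cause was not tested.

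Dividing OPCs were next set beside the other dividing progenitors of the same libraries. Dividing astrocyte progenitors (231, 280, 213 and 219 cells) were taken with the same division limit, at least 3 UMIs of *Slc1a3*, *Aldoc* and *Aqp4*, and none of *Pdgfra*, *Dlx1*, *Dlx2* or *Foxj1*. Dividing inhibitory neuron progenitors (305, 75, 265 and 45 cells) were taken with at least 3 UMIs of *Dlx1* and *Dlx2* and none of *Pdgfra*. The genes of these gates were left out of the tests, and lineage genes that follow from them are given without a test. Dividing OPCs exceeded both in *Lhfpl3* (1879 ± 1339 CPM against 17.6 and 7.09 CPM), *Sox10* (226 CPM against 2.27 and 1.54 CPM), *Tmem132d*, *Npas1* and *Col19a1*. Against astrocyte progenitors they also led in *Tnr*, *Csmd3*, *Dpp10*, *Gpr17* and *Shisa7*, and against inhibitory neuron progenitors in *Cspg4*, *Matn4*, *Pstpip2*, *Sema3d* and *Vxn*. Astrocyte progenitors led in *Tnc*, an extracellular matrix gene (682 against 50.4 CPM), and in *Tac2*, *Eomes*, *Thrsp*, *Lama2*, *Rmst*, *Itga6*, *Zic5*, *Mgst1* and *Ccdc80*. Their excitatory neuron markers summed to 155, 104, 154 and 154 CPM, against 15.3, 21.5, 14.6 and 29.3 CPM in dividing OPCs. Of 4 such markers tested, 3 (*Eomes*, *Neurod1* and *Tbr1*) were called lower in OPCs and 0 higher. The part of these markers in the differences from this class was not tested. Inhibitory neuron progenitors led in *Dlx5*, *Dlx6*, *Dlx6os1*, *Sp8*, *Sp9*, *Gad2*, *St18*, *Stmn2*, *Shtn1* and *Gm14204*.

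Replication and mitosis genes were compared between the dividing classes. The share of cells on the mitosis side was 74.9, 76.4, 77.9 and 76.7% in astrocyte progenitors, with no single order against OPCs, and 77, 85.3, 75.1 and 86.7% in inhibitory neuron progenitors, above the OPC share of each library. Against astrocyte progenitors, 25.5% of 12623 genes were called higher and 25.7% lower in OPCs (3224 and 3242 genes, or 3503 and 2808 with library totals in place of TMM factors). Of 41 replication genes 27 were lower and none higher (median -0.43), and of 54 mitosis genes 29 were higher and 2, *Pttg1* and *Hmgb2*, lower (median 0.27). *Pcna* was at 421, 338, 425 and 346 CPM in astrocyte progenitors, above every dividing OPC value (-0.83 ± 0.09, adjusted p = 5.01e-06), and *Tk1*, encoding thymidine kinase, differed by -0.89 ± 0.09 (adjusted p = 2.71e-06). *Cenpf* was at 568, 874, 540 and 740 CPM there, below the OPC value of each library (0.52 ± 0.08, adjusted p = 8.6e-05), and *Ube2c*, an E2 enzyme of the anaphase-promoting complex, differed by 0.52 ± 0.09 (adjusted p = 0.000271). With cells thinned to 5000 UMIs, 15 of 40 replication genes were lower and 30 of 54 mitosis genes higher, where 21.2% of all genes were called higher and 20.1% lower. Without the library block, 13 replication genes were called lower and 3 mitosis genes higher, against 11% of all genes lower and 11.3% higher.

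Against inhibitory neuron progenitors, 27.7% of 11833 genes were called higher and 26.2% lower in OPCs (3277 and 3101 genes, or 3656 and 2571 with library totals). Of 41 replication genes 38 were lower and none higher (median -0.69), while the mitosis genes divided into 12 higher and 13 lower of 54 (median 0.03), a split that became 16 higher and 6 lower with library totals in place of TMM factors. *Rrm2* was at 418, 470, 450 and 693 CPM in these progenitors, above every dividing OPC value (-1.50 ± 0.11, adjusted p = 1.15e-07). Of 62 histone genes 57 were lower in OPCs (median -1.25), with the reservation on copies given above. With cells thinned to 5000 UMIs, 34 of 40 replication genes were lower, and 7 mitosis genes were higher and 16 lower, where 25.2% of all genes were called higher and 23.8% lower.

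The D-type cyclins had opposite orders. *Ccnd1* (ENSMUSG00000070348, chromosome 7, 144929931 to 144939925) was at 349, 378, 382 and 450 CPM in dividing OPCs, 185, 157, 175 and 172 CPM in dividing astrocyte progenitors, and 55.9, 76.5, 48.7 and 32.4 CPM in dividing inhibitory neuron progenitors. The 3 classes did not overlap, and OPCs differed by 1.12 ± 0.07 from the astrocyte and by 2.74 ± 0.15 from the inhibitory progenitors (adjusted p = 1.73e-08 and 5.78e-09). *Ccnd2* (ENSMUSG00000000184, chromosome 6, 127125162 to 127152193) was lowest in OPCs, at 358, 513, 363 and 434 CPM, followed by 900, 1447, 978 and 1555 CPM and by 3146, 3622, 3506 and 3986 CPM (-1.58 ± 0.09 and -3.19 ± 0.08, adjusted p = 4.48e-09 and 7.09e-12). Without the cells that held UMIs of another lineage, the *Ccnd2* differences were -2.96 and -4.67. *Ccnd3* was higher in OPCs than in either class (0.90 ± 0.10 and 1.28 ± 0.16). The inhibitor gene *Cdkn1a* was lower than in either, by -1.16 ± 0.19 and -2.63 ± 0.14 (adjusted p = 0.000186 and 2.77e-09).

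The Notch and Id list, which also held *Tcf3*, *Tcf4* and *Tcf12*, was low in dividing OPCs beside astrocyte progenitors. Of its 16 genes 15, among them *Tcf3* and *Tcf4*, were called lower and 1, *Tcf12*, higher (median -1.15). *Id3*, encoding an inhibitor of basic helix-loop-helix factors, was at 157, 104, 148 and 137 CPM against 1083, 954, 1023 and 959 CPM (-2.94 ± 0.09, adjusted p = 1.28e-11). The Notch target *Hes5* was at 133, 163, 145 and 165 CPM against 469, 425, 419 and 372 CPM (-1.53 ± 0.08, adjusted p = 2.62e-09). Of 14 primitive OPC genes 11 were lower than in astrocyte progenitors, among them *Egfr* (-2.55 ± 0.12) and *Vim* (-1.84 ± 0.10), and *Dll3* and *Gsx1* were higher. Excitatory neuron markers were also lower in OPCs in this comparison, as given above. Against inhibitory neuron progenitors, 3 of 16 genes of the Notch and Id list were higher and 6, among them *Tcf3* and *Tcf4*, lower. Of all genes, 27.7% were called higher and 26.2% lower there. *Sox11*, higher in dividing than in resting OPCs, was lower than in both other dividing classes (-0.52 ± 0.07 and -2.59 ± 0.08, adjusted p = 4.55e-05 and 3.67e-11). *Nes* was lower than in astrocyte progenitors (-0.24 ± 0.08, adjusted p = 0.0279), a call lost with DESeq2 (adjusted p = 0.0969) and with library totals (adjusted p = 0.122), and higher than in inhibitory neuron progenitors (0.91 ± 0.10, adjusted p = 4.14e-06).

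**Figure D4:**
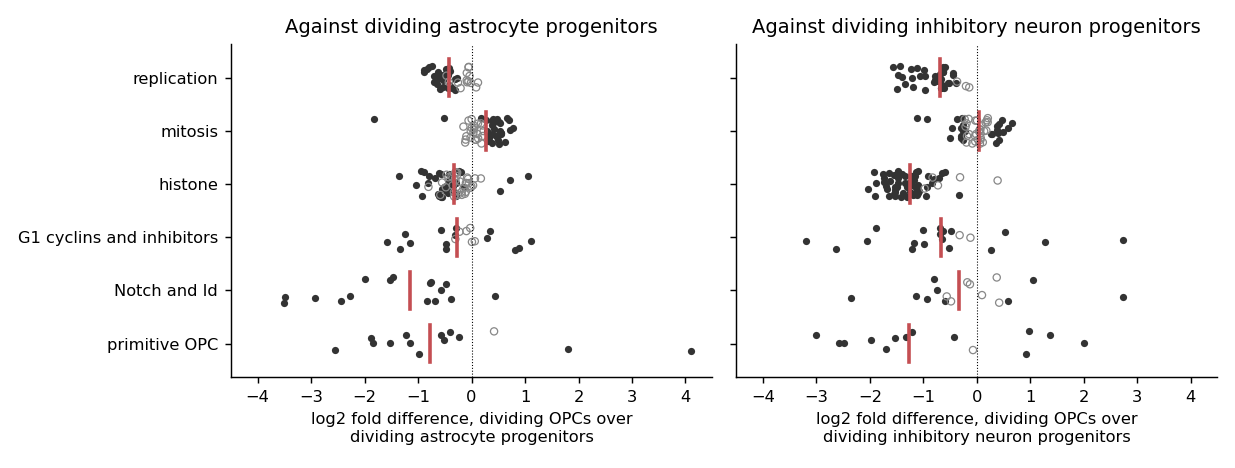
Fitted log2 fold differences (x axis) of dividing OPCs over dividing astrocyte progenitors (left) and over dividing inhibitory neuron progenitors (right) for genes of 6 lists (rows). Filled points passed the test, open points did not and red bars mark medians, which for replication genes lie at -0.43 and -0.69.

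By genotype, dividing OPCs made up 2.42% (95% exact interval 2.03 to 2.85%) and 5.01% (4.26 to 5.86%) of filtered cells in the control libraries and 4.35% (3.83 to 4.91%) and 6.13% (5.33 to 7.0%) in the mutant libraries. The intervals cover counting error alone. The share was higher in the mutant library within both replicates, by 1.93 and 1.11 percentage points, but control replicate 2 exceeded mutant replicate 1, so the genotypes overlapped (3.71 ± 1.83% against 5.24 ± 1.26%, SD, n = 2, two-sided exact permutation p = 0.667, where the smallest value possible is 0.333). All OPCs together made up 11.6, 16, 19.1 and 19.4% of filtered cells. Among OPCs, the dividing share was 20.8 and 31.4% in control and 22.7 and 31.5% in mutant libraries, differences of 1.89 and 0.136 percentage points within the replicates (exact permutation p = 0.667). With a mitochondrial limit of 5% these differences were 1.04 and 7.04 points (exact permutation p = 0.667). Both libraries of replicate 2 lay above both of replicate 1, and the sorted cells do not give the number of cells in the tissue. The share of dividing OPCs on the mitosis side was 76.9 ± 4.21% in control and 77.7 ± 6.95% in mutant libraries (n = 2, exact permutation p = 1), with differences of -1.15 and 2.72 points within the replicates.

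**Figure D5:**
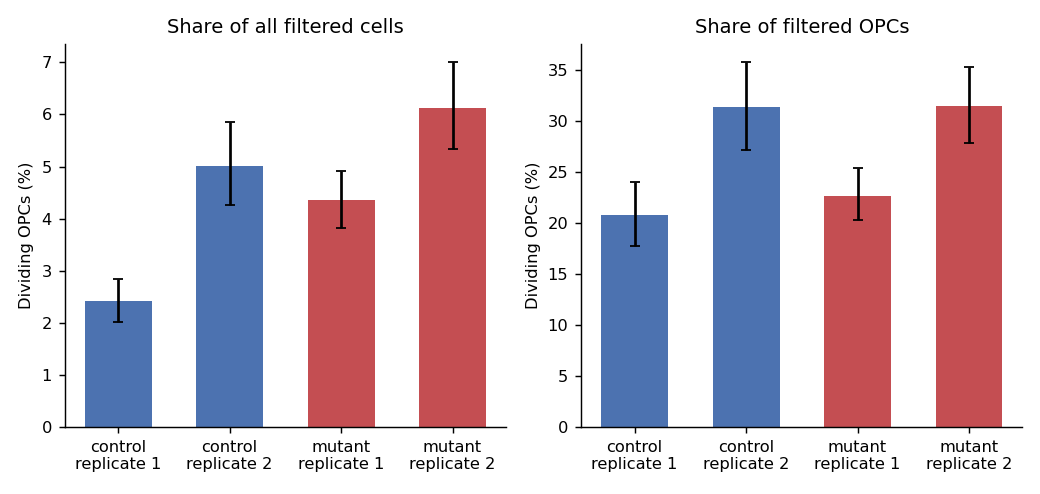
Dividing OPCs as a percentage of all filtered cells (left) and of all filtered OPCs (right) in each library, with 95% exact binomial intervals for counting error alone. The mutant bar is above the control bar of the same replicate in the left panel (4.35 against 2.42% and 6.13 against 5.01%), while in the right panel the replicates differ more than the genotypes.

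No gene passed the test by genotype in dividing OPCs. Of 12077 genes tested with edgeR, 0 (0%) were called at an adjusted p under 0.05 and 13 had an unadjusted p under 0.05, and DESeq2 called 0 with 6 genes at an unadjusted p under 0.05. With the replicate number as a block, 0 were called and 357 had an unadjusted p under 0.05. In simulated counts with the spread of these libraries, the fit without the block recovered 0% of genes changed by 2-fold and the fit with it 69%, so that changes of 2-fold were not detectable without the block and smaller ones were beyond what either fit was tested on. *Chd8* (ENSMUSG00000053754, chromosome 14, 52198151 to 52257780, minus strand) was at 60.5 and 110 CPM in control and 74.8 and 112 CPM in mutant libraries, a log2 fold difference of 0.14 ± 0.38. Reads from 3′ ends do not show the deleted exons, so this level does not check the genotype. *Olig1* was at 992 ± 63.5 CPM in control and 1189 ± 282 CPM in mutant libraries (n = 2), with log2 differences of -0.07 and 0.55 within the replicates, and as a gene of the rule it was not tested. *Tcf4* (0.03 ± 0.34) and *Nfia* (0.11 ± 0.55) moved in opposite directions within the replicates (-0.09 and 0.21, and -0.07 and 0.47).

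The list medians of the genotype difference are set beside that of all genes (0.01). They were 0.02 for OPC identity, 0.05 for primitive OPC genes, 0.09 for differentiation, 0.11 for growth factor receptors, 0.13 for Notch and Id genes, 0.08 for channels and receptors and 0.03 for G1 regulators. Replication genes had a median of 0.11, mitosis genes of -0.07, chromatin regulators of -0.01, p53 targets of 0.06, oxidative phosphorylation genes of 0.01, ribosomal genes of 0.13 and histone genes of -0.14. The 11 immediate early genes had a median of 0.14 and the 8 Wnt targets one of 0.32. No gene of any of them was called. Whether the genotype difference depended on division was tested as an interaction over dividing and resting OPCs. Of 12916 genes, 2 (0.0155%) were called by edgeR, the globin genes *Hba-a2* and *Hbb-bs*, and both rested on resting OPCs of control replicate 2 (535 and 1023 CPM). Neither was called without control replicate 2 or without mutant replicate 2. In dividing OPCs *Hbb-bs* was at most at 9.12 CPM, and the markers of red blood cells summed to between 0.765 and 13.7 CPM.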

How the data were processed

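Cells from 4 libraries (2 control, 2 mutant), grouped by their labels, were measured by 10x Chromium 3′ v3.1 single-cell RNA-seq. The authors mapped reads to mm10 with Cell Ranger (per the file headers, version 7.0.0 for replicate 1 and 5.0.1 for replicate 2, while the submitters' processing notes name 3.0) and deposited raw UMI counts for every gene in every barcode. Version 7.0.0 counts intronic reads by default and 5.0.1 does not. The setting used is not given in the sources used here. The reporting summary states male mice. The cells, gene lists and tests were chosen with earlier results of these data known.

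The rule was applied to the counts with Python 3.11.15, and no doublet caller was run. Counts were summed per library and class. Dividing OPCs held 1998291 to 4172924 UMIs per library. Sums were tested with edgeR 4.0.16 quasi-likelihood fits in R 4.3.3 (TMM, filterByExpr, Benjamini-Hochberg threshold 0.05), with a library block for class comparisons and genotype alone for genotypes. Genes of the gates were left out. The standard error was taken as the log2 fold change over the square root of F. DESeq2 1.42.0, library totals, other filters on low counts, a mitochondrial limit of 5%, stricter gates, thinning to 5000 UMIs, removal of cells with UMIs of another lineage, a replicate block and each library left out were alternatives, and the window of 8000 to 16000 UMIs was added after the depths had been seen. Shares were tested by exact permutation over 6 assignments. On simulated counts, the fits recovered 97.5, 92 and 88% of 200 genes changed by 2-fold in the comparisons with resting OPCs, astrocyte progenitors and inhibitory neuron progenitors.

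Named genes were the genes of the rule, *Chd8*, *Tcf4*, *Nfia*, *Xist* and *Ddx3y*, in each list the 4 with the highest level and the 2 largest changes each way, and in each class comparison up to 10 each way at 50 CPM or more with 1 direction in all libraries. Other genes were chosen after their values were seen. A few genes that the rule names are not reported here. Positions came from GENCODE vM21 (GRCm38) for 32235 of 32285 genes and promoter sequences from RefSeq.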

Additional observations from a re-analysis of the deposited data

Results flagged for a closer look

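The genotype difference of *Hba-a2* and *Hbb-bs* differed between dividing and resting OPCs by the edgeR interaction test, by 6.99 ± 0.82 and 6.65 ± 0.72 on the log2 scale (SE, adjusted p = 0.0026 and 0.00179). The difference came from a single library, since resting OPCs of control replicate 2 held 535 and 1023 CPM of these globin genes and the other 3 libraries at most 5.52 and 11 CPM. The part of red blood cell RNA in it was not tested.

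Barcodes outside the filters also met the marker rule. There were 10 such barcodes above 40000 UMIs, and 113 above the mitochondrial limit, of which 50 were in control replicate 2 and 52 in mutant replicate 2. In these libraries 24.8 and 19.7% of all barcodes that met the marker rule exceeded that limit, against 1.4 and 3.49% in control and mutant replicate 1. Among all barcodes, 44 and 37.8% exceeded it in replicate 2 and 9.38 and 12.3% in replicate 1.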

How the results depend on the processing

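The mutant minus control difference in the share of dividing OPCs among filtered cells stayed positive, from 0.225 to 2.82 percentage points with a library left out. That in the share of OPCs past the division limit (1.01) was 4.04 with a mitochondrial limit of 5% and 2.41 after thinning, and ran from -4.25 to 6.27 with a library left out, negative without control replicate 1 and without mutant replicate 2, and that in the mitosis share from -4.13 to 5.7. The latter was also negative with *Mki67* and *Top2a* at 5 or more (-1.42), without cells with UMIs of another lineage (-0.654) and after thinning (-3.81), with exact permutation p between 0.667 and 1. With the replicate block the 3 differences were 1.52, 1.01 and 0.786.

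Between dividing and resting OPCs, 4641 genes were called, 2663 with DESeq2, 2497 after thinning, 968 without the library block (838 higher, 130 lower) and 2375 in cells of like depth. Against astrocyte progenitors 6466 were called, 4074 after thinning and 2813 without the block. Against inhibitory neuron progenitors 6378 were called, 4112 with at least 10 counts in every sum and 3227 without the block. The replicate block left the genotype count in dividing OPCs at 0. The deviations of same-numbered libraries from their genotype means had a correlation of 0.794 over 10548 genes, and the labels do not say what the numbers share. The interaction count of 2 was 0 with DESeq2 and with at least 10 counts in every sum, 21 without a filter and from 1 to 67 with a library left out (52 without mutant replicate 1, 67 without mutant replicate 2). The cause of these changes was not tested.

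Without cells with UMIs of another lineage, *Ccnd2* (-0.349), *Gad2* (-0.397), *Shtn1* (-0.68) and *Stmn2* (-0.632) reversed between dividing and resting OPCs, *Cdkn1a*, *Hes1*, *Kcnd2*, *Nfia*, *Pstpip2*, *Rpl13*, *Rps6kl1*, *Sox10* and *Tnc* lost their call, and *Gad2* (-0.939) against astrocyte progenitors. In cells of like depth *Bcan* (0.0345), *Cspg4* (0.172), *Cspg5* (0.0476), *Hes1* (0.327), *Id2* (0.0713), *Kcnj16* (0.0315), *Nfia* (-0.0534) and *Rpl23* (-0.257) reversed, and *Sdhaf2* (0.113) did so against astrocyte progenitors after thinning. With a library left out, 7 to 13 of the named genes lost their call between dividing and resting OPCs, 3 to 5 against astrocyte progenitors and 2 to 6 against inhibitory neuron progenitors, and 0 reversed. Among them were *Cdkn1a*, *Hes1*, *Id2*, *Nfia* and *Sox10* in the first comparison and *Nes* in the second.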
